A study of Rattus norvegicus with 4 samples.

Results

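The arms of the rat miR-122 precursor, rno-miR-122-5p and rno-miR-122-3p, were followed in serum exosome RNA of naive rats and of rats with hepatocellular carcinoma (HCC). They were taken by their array names and are 2 of the 719 microRNAs (miRNAs) on the array, read by 4 of its 1730 probes and by 40 of its 14380 miRNA spots. Serum exosomes are small vesicles that cells release into blood. Each of the 4 groups had 1 single-colour Agilent array: uninjected naive rats (day 0), and rats with light disease on day 35, moderate disease on day 49 and severe disease on day 49 after injection of an HCC cell line that the labels do not name. All were male, of a strain that the design text spells "baffolo", and the same text calls the injected agent tumour exosomes given as 1 dose. That text speaks of 4 independent experiments per time, but 1 array per group was analysed, and whether its RNA was pooled is not stated. No p-value can therefore be given. Errors written with ± are standard errors over the spots of 1 array, and they leave out the spread between rats. Disease grade and day differ together in every comparison except that of severe with moderate, and cannot be told apart. Where 4 values follow each other below, they are in the array order naive, light, moderate, severe.

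miR-122 is the dominant miRNA of hepatocytes, where it supports lipid and cholesterol metabolism and holds fetal and growth-promoting genes down. It is released into blood when hepatocytes are damaged, and many hepatocellular carcinomas express little of it. A miRNA hairpin is cut into a pair of arms. The 5p arm of miR-122 is the guide strand that loads into Argonaute and pairs with targets mainly through its seed, and the 3p arm is largely degraded.

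The mature sequences are shown because the 4 probes are named for them, with the seed (bases 2 to 8) in capitals. They come from RefSeq, build GRCr8, where the 5p arm lies at chr18:61028831-61028852 and the 3p arm at chr18:61028867-61028885, both on the plus strand in the Mir122 gene. The third sequence is miR-3591, from the opposite strand of the same locus.
miR-122-5p: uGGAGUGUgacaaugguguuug
miR-122-3p: aACGCCAUcaucacacuaa
miR-3591: aACACCAUugucacacucca
The 5p arm covers bases 15 to 36 and the 3p arm bases 51 to 69 of the 85-base hairpin. Of the 693 mature rat miRNAs in the table, 0 others share the seed of either arm. The longest run of bases that miR-122-5p shares with any of 640 other miRNAs of the array is 9, with miR-3551-5p, and for miR-122-3p it is 7.

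miR-3591 lies on the minus strand at chr18:61028831-61028850, and its 20 bases are complementary to bases 1 to 20 of miR-122-5p. It was not detected on any array. Its background-subtracted sums were −8.43, −5.44, −2.17 and −6.95 intensity units in array order, and 0 of the spots used were well above background. The strand of miR-122 thus gave signal on arrays where the probes for its antisense miRNA gave none.

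miR-122-5p was detected on all 4 arrays and miR-122-3p on 3, all but the light array. The processed signal, which the scanner software had corrected for background, was taken as the mean of a probe's spots and added up for the 2 probes of each arm. For miR-122-5p it came to 1123 ± 11.2, 132 ± 2.03, 964 ± 9.59 and 417 ± 6.69 intensity units in array order. The naive array was highest and the light array lowest.

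Arrays differed in brightness: the summed signal of detected miRNAs relative to naive was 0.643 on light, 1.58 on moderate and 0.694 on severe. Each value was therefore divided by the 75th percentile of its own array, taken over the 111 miRNAs that all 4 arrays detected. On this scale miR-122-5p stood at 1.69, 0.372, 1.01 and 1.01 times the 75th percentile in array order. The moderate and severe arrays, which differed 2.31-fold before scaling, differed by less than the spot error after it. miR-122-5p was itself among the 111 miRNAs and lay close to that percentile on both arrays, so this follows in part from the scaling. With the miR-122 arms left out of scaling the log2 difference, severe minus moderate, was −0.07. In RNA from serum, fewer vesicles from a source and less miRNA per vesicle cannot be told apart.

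**Figure D1:**
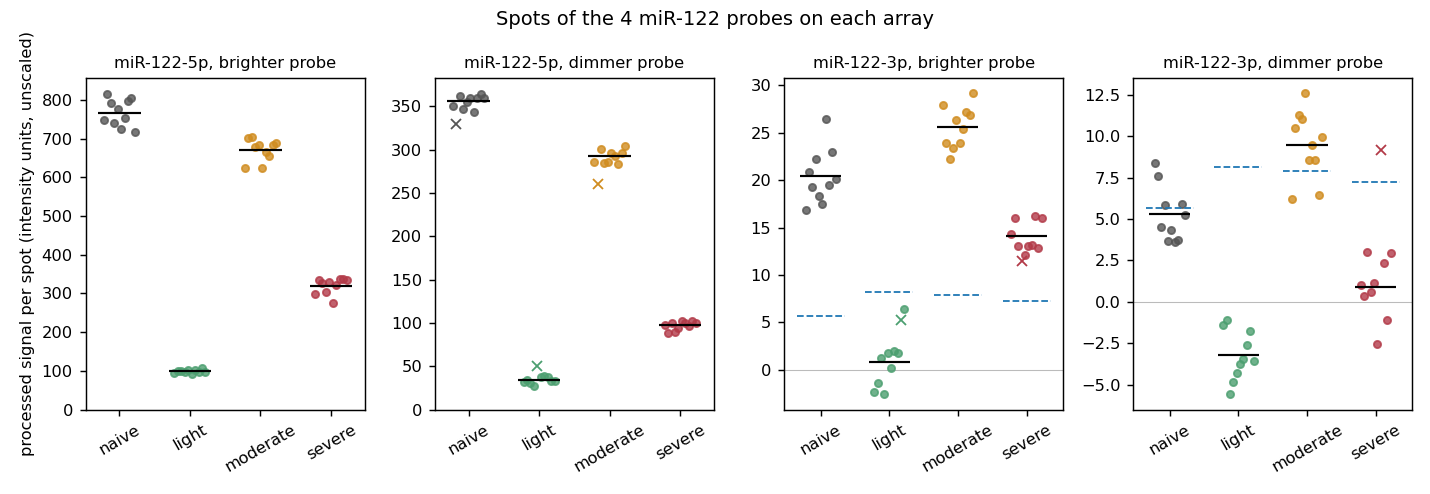
Processed signal of every spot (intensity units, unscaled) of the 4 miR-122 probes on each array; bars are means over the spots used, crosses are spots the scanner software marked as outliers, and dashed lines on the 3p panels are the 95th percentile of negative control spots. Both 5p probes are lowest on the light array, and both 3p probes lie below the dashed line there.

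On the light array miR-122-5p differed most from naive. It was 4.53-fold lower (log2 −2.18 ± 0.03), where 2-fold was the size taken as a call. Of the 117 miRNAs measured on both arrays, 1 was at least 2-fold lower, a background of 0.855%, and that was miR-122-5p itself; 1.71% were at least 2-fold higher. A miRNA counted as measured if the software called it detected and its signal was no lower than a floor, set by the dimmest probe for which 0.5 or more of the spots were flagged well above background. The next lowest of the 117 stood at −0.82. Since the median of all 117 was 0.27 with this scaling, miR-122-5p lay 2.45 below that median on the log2 scale. The count of 1 depended on the scaling: 5 miRNAs were at least 2-fold lower with median scaling, 32 without scaling and 33 with spike-ins. Without scaling the fold of miR-122-5p was 8.48, and the median of all stood at −0.63. Its place as the lowest cannot change where every miRNA is shifted by 1 constant. Quantile normalization, the scanner software's total signal and the normexp background model can change it, and it was the lowest of the miRNAs compared under each.

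On the moderate array miR-122-5p stood 1.67-fold below naive (log2 −0.74 ± 0.02), short of 2-fold. The background of miRNAs at least 2-fold lower was 0.794%, which is 1 miRNA, and 8 lay lower than miR-122-5p. It was 0.96 below the median of all, and its difference shrank to −0.055 with labelling spike-ins and −0.22 without scaling.

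On the severe array it stood 1.68-fold below naive (log2 −0.75 ± 0.03), again short of 2-fold. There the background of miRNAs at least 2-fold lower was 19.3%, or 21 of 109, and 25 of the 109 lay lower than miR-122-5p. Its distance from the median of all was −0.63. Without scaling the difference was past 2-fold, at −1.43, but so were 42 of the 109 miRNAs, and the median of all was −0.79.

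Both arrays of day 49 lay above the light array of day 35. The moderate array was 2.72-fold higher in miR-122-5p (log2 1.44 ± 0.03), where 6.84% of miRNAs (8 of 117) were at least 2-fold higher and 3 were higher than miR-122-5p. The severe array was 2.70-fold higher than light (log2 1.43 ± 0.03), against a background of 21.2% (22 of 104), with 16 higher than it. Relative to the median of all miRNAs these differences were 1.45 and 1.91. Under normexp, which added an offset of 50 units to each spot, both stayed under 2-fold, at 0.92 and 0.84. These comparisons share the light array, and those against naive share the naive array.

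With the reported scaling, severe and moderate disease, compared on the same day, differed in miR-122-5p by less than the spot error. miR-122-5p stood at 1.01 times the 75th percentile on both arrays and was among the miRNAs that set it. The near-equality therefore follows in part from the scaling. With the miR-122 arms left out of scaling the log2 difference was −0.07, and with labelling spike-ins −0.68. The last value rests on the geometric mean of 2 spike-ins that did not fall alike. From moderate to severe, dmr_285 went from 4307 to 3592 intensity units and dmr_31a from 1421 to 825. With the reported scaling the log2 difference of miR-122-5p was −0.01 ± 0.03, in a comparison where 20% of miRNAs (23 of 115) were at least 2-fold lower. Its sign depended on the setting, from −1.21 without scaling to 0.32 with detection by spots well above background. Relative to the median of all 115 miRNAs it lay 0.40 higher on the severe array.

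**Figure D2:**
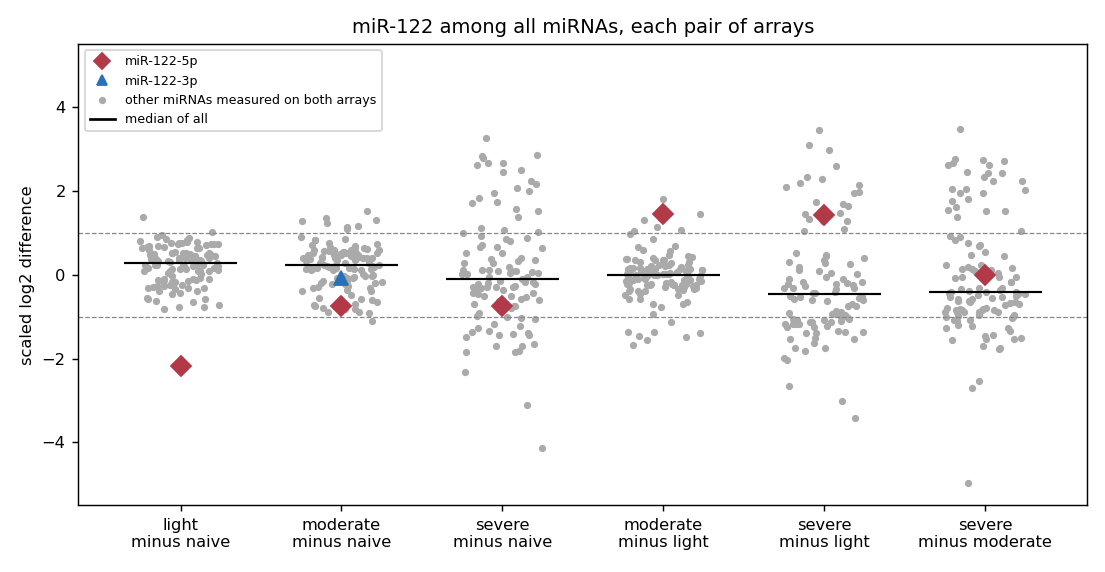
Scaled log2 difference (y axis) of every miRNA measured on both arrays of each pair (x axis), with miR-122-5p as diamonds, miR-122-3p as a triangle, medians as bars and 2-fold as dashed lines. miR-122-5p stands alone at −2.18 in light minus naive, where the next lowest is at −0.82, and lies within the spread of the others in the other pairs.

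Among the 104 miRNAs measured on all 4 arrays, 12 were highest on the naive array and 14 lowest on the light array. Both held for 1 of the 104, miR-122-5p. The order was taken from miR-122-5p itself, so it had to be among those counted. The log2 levels of miR-122-5p spanned 2.18 over the arrays, against a median of 1.17 for the others, of which 14 spanned more. This order was read with the scaling given above.

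The 2 probes of miR-122-5p were each compared with themselves between arrays. The brighter one, A_26_P00001313, read 767 ± 10.9, 98.7 ± 1.54, 671 ± 9.25 and 320 ± 6.51 intensity units in array order. The dimmer one, A_26_P00001312, read 356 ± 2.36, 33.8 ± 1.32, 292 ± 2.54 and 97.1 ± 1.56. Every spot of both was well above background. Before scaling, the spots used did not overlap between any 2 arrays for either probe. Those arrays differed in brightness, overlap was not counted for other probes, and spots of 1 array do not measure the spread between rats. After scaling, the brighter probe's spots on the moderate and severe arrays overlapped, at 65.3% to 73.9% and 66.6% to 81.3% of the 75th percentile, and the dimmer probe's did not, at 29.8% to 31.9% and 21.4% to 24.7%.

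From naive to light the brighter probe gave a scaled log2 difference of −2.06 ± 0.03 and the dimmer probe −2.49 ± 0.06, so both were past 2-fold. From naive to moderate they gave −0.71 ± 0.03 and −0.80 ± 0.02. From naive to severe they differed in the call, with −0.58 ± 0.04 for the brighter probe and −1.19 ± 0.03, past 2-fold, for the dimmer one. Between moderate and severe they went in opposite directions: the brighter probe was 0.13 ± 0.04 higher on the severe array and the dimmer probe stood at −0.39 ± 0.03. The near-equal scaled sums on the 2 arrays of day 49 thus join probes that differ in direction. From light to moderate both were higher, by 1.34 ± 0.03 and 1.69 ± 0.06, and from light to severe by 1.48 ± 0.04 and 1.30 ± 0.06.

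Such gaps between 2 probes of a miRNA do not depend on the scaling between arrays, and miR-122-5p had large ones. In light minus naive the dimmer probe lay 0.44 below the brighter one, and 0 of the 78 other miRNAs with 2 measured probes had a larger gap in either direction, their median absolute gap being 0.055. In severe minus naive the gap was −0.61, with 4 of 70 others larger, and in severe minus moderate it was −0.52, with 5 of 75 larger. In moderate minus naive it was −0.09, with 33 of 92 larger. In severe minus naive 35 of the 70 other gaps were below 0 (median −0.00038). On the light array 9 of the dimmer probe's 10 spots were used, with a coefficient of variation of 11.7%, and the spot left out read 50.3. The cause of the gaps was not tested.

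**Figure D3:**
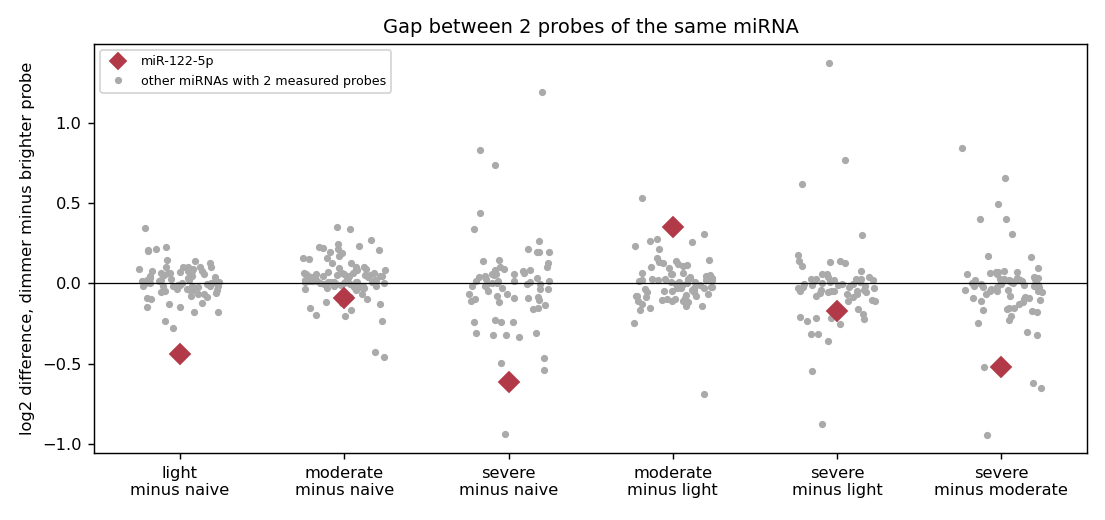
Gap in log2 difference between the 2 brightest measured probes of a miRNA (dimmer minus brighter, y axis) for each pair of arrays (x axis), with miR-122-5p as diamonds and other miRNAs as dots. miR-122-5p has the largest absolute gap in light minus naive (−0.44), and gaps of −0.61 and −0.52 in severe minus naive and severe minus moderate.

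The passenger arm miR-122-3p was near the limit of the array. Its sums were 25.7 ± 1.05, −2.46 ± 1.04, 35.1 ± 0.95 and 14.9 ± 0.81 intensity units in array order. The floors were 15.6, 15.1, 13.1 and 16.01, so it was measured on the naive and moderate arrays, was detected but under the floor on the severe array, and was not detected on the light array. Its signal came mainly from probe A_26_P00003396, with 20.4 ± 0.91, 0.78 ± 0.92, 25.6 ± 0.70 and 14.1 ± 0.53. Of that probe's 10 spots on each array, 10, 0, 10 and 3 were well above background.

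The other 3p probe, A_26_P00003395, read 5.29, −3.24, 9.46 and 0.86 intensity units, with 0 of 10 spots well above background on each array. Negative control spots averaged 2.16, 3.68, 3.69 and 3.56, with 95th percentiles of 5.64, 8.16, 7.91 and 7.26. On the light array both 3p probes were therefore below the mean of the negative controls, and 0 of the spots used of either probe exceeded their 95th percentile. On the severe array all 9 spots used of the brighter probe exceeded it.

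From naive to moderate miR-122-3p differed by −0.07 ± 0.07 on the log2 scale, at 3.86% and 3.68% of the 75th percentile, which is within the spot error. The 5p arm differed by −0.74 in the same comparison, so the sums of the arms were 0.67 ± 0.07 apart. The 3p sum takes in the dimmer probe, which had 0 spots well above background on either array. The brighter 3p probe alone gave −0.19 ± 0.08, 0.55 ± 0.08 from the 5p arm, and no error between rats exists for either gap. In the scanner software's total signal the 3p arm was 1.74 times as high on the moderate as on the naive array, unscaled. The total counted both probes on the moderate array, where 27.0% of it came from the dimmer probe, and the brighter probe alone on the naive array. That brighter probe's own total signal was 1.27 times as high.

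For the light and severe arrays no fold of miR-122-3p against naive was given, since the bound was 0.907-fold on light and came to equality within rounding on severe. The naive level carried to the light array corresponds to 13.7 intensity units, under the floor of 15.1, so an unchanged 3p arm would also have been under the floor there. The measured sum of −2.46 ± 1.04 was lower than 13.7 by more than the spot error. On the severe array the naive level corresponds to 16.01 units, and the measured sum was 14.9 ± 0.81.

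Other miRNAs of liver were set beside miR-122-5p as a list of 17, chosen with earlier results of these data known. The array names held 16 of them, all but miR-148a-3p. Of these 8, 7, 9 and 7 were measured in array order, so the list is read only through those. On the light array 7 were measured together with naive, and 0 passed 2-fold in either direction, where 1.71% of all were at least 2-fold higher and 0.855% lower. Their median was 0.53, against 0.27 for all miRNAs, and 1 of 7, miR-192-5p, had the same sign as miR-122-5p. miR-192-5p, a miRNA of liver, gut and kidney, read 321, 151, 463 and 588 intensity units, or log2 −0.19, 0.01 and 1.56 from naive after scaling. It was thus highest on the severe array, where miR-122-5p was below naive.

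On the moderate array 0 of 8 liver miRNAs passed 2-fold, where 6.35% of all were at least 2-fold higher and 0.794% lower. All 8 had differences above 0, from 0.01 to 0.72, with a median of 0.48 against 0.22 for all. On the severe array 2 of the 7 measured there and on naive were at least 2-fold higher, against a background of 22%, with a median of 0.37 against −0.11. None of these 7 was at least 2-fold lower, where 19.3% of all were, a share too small to set 7 miRNAs apart. They also leave out miR-215, which was under the floor on the severe array. Those 2 were miR-192-5p and miR-193-3p, another miRNA of liver, which read 16.4, 38.7 and 64.9 on naive, moderate and severe (log2 2.67 for severe) and was not measured on light. miR-22-3p and miR-29a-3p, abundant well beyond the liver, stood at 0.53 and 0.50 on the light array and at 0.02 and 0.63 on the severe array. miR-215, which shares its seed with miR-192-5p, read 101.6, 105.2, 216.1 and 14.6 intensity units. It was at 0.95 on the light array and at least 3.96-fold lower than naive on the severe array, taking the severe floor as its level there. It thus lay below naive on the severe array, as miR-122-5p did, and above naive on the light array.

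The miRNAs most like miR-122-5p were those with the smallest root mean square distance between log2 profiles over the 4 arrays, each profile centred on its mean. Distances of the 103 others ran from 0.598 to 2.01, with a median of 1.02. The 5 nearest were miR-466c-3p, miR-466b-2-3p, miR-3584-5p, miR-126a-3p and miR-30c-5p. On the light array they stood between −0.38 and −0.76, and 0 of them were at least 2-fold below naive. miR-466c-3p, the nearest, known in mouse from a miRNA cluster in an intron of Sfmbt2, stood at −0.76, −0.38 and 0.52 on light, moderate and severe. miR-126a-3p, a miRNA of endothelium and platelets, stood at −0.64, −0.08 and −0.98.

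**Figure D4:**
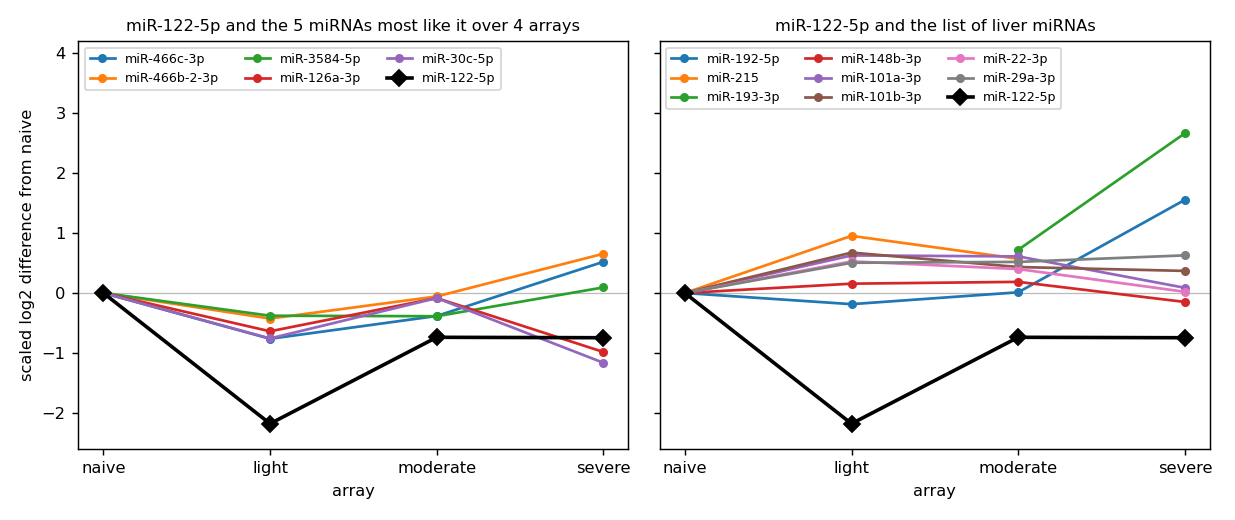
Scaled log2 difference from the naive array (y axis) on each array (x axis) for miR-122-5p (black) with the 5 miRNAs most like it (left) and with the liver miRNAs measured on the naive and on at least 1 other array (right). miR-122-5p stands at −2.18 on the light array, while the 7 liver miRNAs measured there and on naive lie between −0.19 and 0.95. miR-215, under the floor on the severe array, is not drawn there.

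Markers of other sources of serum miRNA also differed between these arrays. The red cell markers summed to 5256%, 6790%, 5783% and 4133% of the 75th percentile, with 3, 3, 4 and 4 measured of the 4 on the array. The sum was highest on the light array, where miR-122-5p was lowest, and most of it was miR-451-5p, at 4170%, 5477%, 4596% and 3384%. The members did not move together: miR-144-3p, from the same precursor cluster as miR-451, was highest on the severe array, at 25.3%, 65.7%, 22.2% and 89.4% (log2 1.38 from naive on light and 1.82 on severe). miR-144-5p was also highest on the severe array, at 9.20%. Leukocyte markers, 6 of 6 measured on each array, summed to 1258%, 1749%, 1763% and 677%. Most of this was miR-223-3p, at 981%, 1371%, 1522% and 521%, and these members also differed in direction. On the moderate array 2 of 6 were below naive, miR-142-3p at log2 −0.88 and miR-150-5p at −0.57. The median of the 6 was 0.14 there, against 0.22 for all miRNAs. On the severe array 5 of 6 were below naive, all but miR-142-3p at 0.03. There the median of the 6 was −0.78, against −0.11 for all miRNAs, so many others were also below naive. At least 2-fold lower were 2 of 6, against a background of 19.3%. Muscle markers, with 2, 2, 5 and 1 of 5 measured, summed to 187%, 118%, 363% and 9.48%. Most of this was miR-133b-3p, at 167%, 102%, 297% and 9.48%. It stood at log2 −0.71, 0.83 and −4.14 from naive on light, moderate and severe. miR-1-3p, of heart and skeletal muscle, stood at −0.29 on light and 1.53 on moderate. On the severe array miR-1-3p was under the floor, at least 5.08-fold below naive. Those of platelets and endothelium, with 1, 1, 3 and 1 of 3 measured, summed to 10.8%, 6.93%, 17.0% and 5.46%. The marker measured on all 4 arrays, miR-126a-3p, was at 10.8% on naive and 10.2% on moderate. The higher moderate sum thus came from miR-126a-5p and miR-191a-5p, which were measured only there. The part of these sources in the miR-122-5p levels was not tested.

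**Figure D5:**
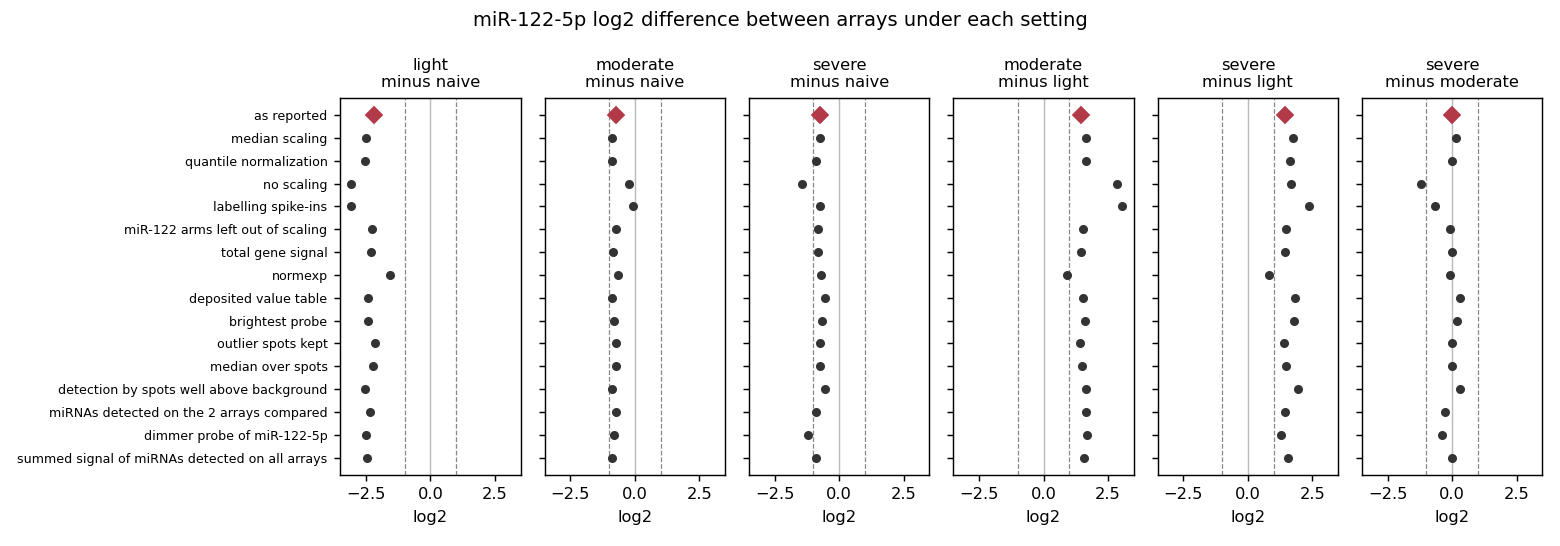
Log2 difference of miR-122-5p (x axes) for each pair of arrays (panels) under the reported setting (diamond) and 15 alternatives (dots), with 2-fold as dashed lines. All 15 alternatives keep light at least 2-fold below naive, from −3.09 to −1.56, while severe minus moderate lies on both sides of 0.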

How the data were processed

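Serum exosome RNA was labelled with Cy3 and hybridised to 4 Agilent rat miRNA arrays on 1 slide, 1 array per group. Per the file headers, the deposited intensity values came from Agilent Feature Extraction 10.7.3.1 (protocol miRNA_107_Sep09, grid 046066, rn4), background-subtracted with spatial detrending and not scaled between arrays; the submitters' processing notes name version 9.1. The labels' labelling protocol describes amplified cRNA, which was not resolved. The deposited value table holds 102 miRNAs with the same total signal, within 0.005 intensity units, including miR-122-5p and not miR-122-3p.

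Control and outlier spots were left out (1, 2, 1 and 2 of the 40 miR-122 spots), and 0 of these spots were saturated. Spots were averaged per probe and summed per miRNA, divided by the 75th percentile over miRNAs detected on all arrays, and log2 was taken (Python 3.11.15, pandas 2.3.3; normexp with limma 3.58.1, R 4.3.3). The files have no mean spot signal, so normexp used the median spot signal. Averaging and summing of spots were tested on simulated data for bright miRNAs. That test took out the median error, so it covers neither the scaling nor the floor and dim probes. Precision is limited by the number of arrays, and a single array per group allows no test. Members, lists and thresholds were chosen with earlier results of these data known. Named miRNAs are both arms, the 5 most like miR-122-5p and measured members of the fixed lists; miR-3591 and miR-3551-5p were added for their sequence or position.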

Additional observations from a re-analysis of the deposited data

How the results depend on the processing

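Log2 differences of miR-122-5p are given here in the order light minus naive, moderate minus naive, severe minus naive, moderate minus light, severe minus light and severe minus moderate. They were −2.52, −0.88, −0.75, 1.64, 1.77 and 0.13 with median scaling, and −2.53, −0.89, −0.89, 1.64, 1.64 and 0 with quantile normalization. Without scaling they were −3.08, −0.22, −1.43, 2.86, 1.66 and −1.21, and with the labelling spike-ins −3.09, −0.055, −0.74, 3.04, 2.35 and −0.68. The spike-in setting used the geometric mean of 2 spike-ins, which differed most in their change on the severe array. In array order dmr_285 read 4556, 4774, 4307 and 3592 intensity units, and dmr_31a 1691, 1628, 1421 and 825. With the miR-122 arms left out of scaling the log2 differences were −2.27, −0.74, −0.81, 1.53, 1.46 and −0.07, and with miRNAs detected on the 2 arrays compared −2.33, −0.74, −0.89, 1.67, 1.42 and −0.27. The scanner software's total signal gave −2.29, −0.85, −0.84, 1.44, 1.45 and 0.01, and the deposited value table −2.41, −0.87, −0.57, 1.54, 1.84 and 0.30. Normexp gave −1.56, −0.63, −0.72, 0.92, 0.84 and −0.09; its offset of 50 units per spot lowers folds by construction. With the brightest probe of every miRNA they were −2.42, −0.82, −0.65, 1.60, 1.78 and 0.17, and with detection by spots well above background −2.52, −0.88, −0.56, 1.65, 1.96 and 0.32. Settings chosen after seeing the data gave −2.49, −0.80, −1.19, 1.69, 1.30 and −0.39 for the dimmer probe, and −2.45, −0.88, −0.90, 1.57, 1.55 and −0.02 for scaling by summed signal. Keeping outlier spots and taking the median over spots moved these values by less than the spread over spots. Light stayed at least 2-fold below naive under all 15 alternatives, and the moderate and severe arrays at least 2-fold above light under 14 of 15 each, the exception being normexp. The causes of the other shifts were not tested.

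Counts of miRNAs past 2-fold moved more. At least 2-fold lower on the light array than naive were 5 with median scaling, 32 without scaling and 33 with spike-ins. For moderate minus naive the counts were 4 with median scaling, 7 with quantile normalization, 3 with total signal, and 0 without scaling, with spike-ins and with normexp. For severe minus naive they were 42 without scaling and 5 with normexp. At least 2-fold higher for moderate minus light were 99 without scaling, 104 with spike-ins and 1 with normexp, and for severe minus light 5 with normexp. For severe minus moderate 78 were lower without scaling, 62 with spike-ins and 7 with normexp. miR-122-3p was detected on 2 arrays, naive and moderate, where at least 0.5 of its spots, or of the spots of 1 probe, had to be well above background. Of the 5 miRNAs most like miR-122-5p, 3 were shared with those by differences from naive and 5 with those without scaling. The 75th percentile over all miRNAs was below 0 on the light array and could not be used. No paired analysis was possible because each group has 1 array. The dim 3p arm is limited by signal over background, and nothing here measures the spread between rats.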
